A study of Mus musculus with 2 samples.

Results

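The genes described here are 10 products that define enteroendocrine cells, the scattered hormone-secreting cells of the gut epithelium: the granins Chga and Chgb, the peptide hormone genes Pyy, Sst, Gip, Cck, Gcg, Nts and Sct, and Tph1, the enzyme of serotonin synthesis. They were chosen by symbol, with the row of highest mean for each, and are 10 of the 20722 symbols in the table. Messenger RNA had been sequenced from purified villi of the small intestine of C57BL/6 mice, with 1 library per genotype. The dKO-labelled library came from a Rosa26-CreERT2 and Cdkn2a-/- animal that also carried Ring1a-/- and Ring1bf/f, and the control library from an animal with Rosa26-CreERT2 and Cdkn2a-/- alone. Both were given 3 tamoxifen injections and sampled 6 days later. Ring1a (Ring1) and Ring1b (Rnf2) are the ubiquitin ligases of Polycomb repressive complex 1, which keeps developmental genes silent. The Rosa26 locus drives Cre in most tissues, so the allele is not restricted to epithelium, and both genotypes lack Cdkn2a. Neither the ages nor the number of animals behind a library is stated in the labels. With 1 library per genotype there is no replicate check, no test between genotypes was possible, and every difference below is between these libraries.

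Enteroendocrine cells arise from crypt progenitors under the transcription factor Neurog3 and mature as they move up the villus. They package hormones into dense-core granules together with granins, acidic proteins that help the granules form, and release them in response to nutrients. Different subtypes make different hormones: Gip and Cck belong mainly to the proximal gut, Pyy, Gcg and Nts mainly to the distal gut, Sst to D cells, and Tph1 marks the serotonin-producing enterochromaffin cells, while Chga and Chgb are shared by several subtypes.

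The stretches below are the 250 bases before the annotated start of the genes at the ends of the range of ratios, the granins Chga and Chgb and the hormones Sst and Pyy. They are shown because the cAMP response element, a binding site of CREB-family factors that is classically described in the somatostatin and chromogranin promoters, stands in promoters from both ends. They are from RefSeq on build GRCm38.p6, matched by symbol, which found all 10 members, and are written 5′ to 3′ on the strand of the gene. Capitals mark TGACGT on either strand, which in Chgb and Sst forms the palindrome TGACGTCA. The windows are chr12:102554691-102554940 on the plus strand for Chga, chr2:132781392-132781641 on the plus strand for Chgb, chr16:23890845-23891094 on the minus strand for Sst and chr11:102107833-102108082 on the minus strand for Pyy, for which the more upstream of 2 listed starts was taken.
Chga: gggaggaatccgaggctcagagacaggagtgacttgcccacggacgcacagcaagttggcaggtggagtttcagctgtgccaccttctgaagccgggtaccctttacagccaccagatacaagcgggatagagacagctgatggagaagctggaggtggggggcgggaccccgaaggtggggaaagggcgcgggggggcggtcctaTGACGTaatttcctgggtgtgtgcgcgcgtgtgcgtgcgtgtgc
Chgb: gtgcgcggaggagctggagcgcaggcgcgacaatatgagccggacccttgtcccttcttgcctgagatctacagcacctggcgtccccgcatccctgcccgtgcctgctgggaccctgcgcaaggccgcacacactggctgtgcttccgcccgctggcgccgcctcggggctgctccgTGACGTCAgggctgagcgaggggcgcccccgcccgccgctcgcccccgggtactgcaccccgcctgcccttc
Sst: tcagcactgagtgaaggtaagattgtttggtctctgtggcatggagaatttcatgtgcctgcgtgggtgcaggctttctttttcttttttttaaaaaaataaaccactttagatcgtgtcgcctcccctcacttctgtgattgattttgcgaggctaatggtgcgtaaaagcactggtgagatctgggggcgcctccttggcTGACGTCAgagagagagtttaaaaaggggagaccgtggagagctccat
Pyy: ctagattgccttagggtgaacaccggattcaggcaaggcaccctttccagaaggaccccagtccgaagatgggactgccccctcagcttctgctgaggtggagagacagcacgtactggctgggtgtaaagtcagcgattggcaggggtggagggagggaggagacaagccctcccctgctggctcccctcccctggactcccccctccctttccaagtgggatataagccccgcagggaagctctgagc

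TGACGT was present in 3 of the 10 member windows, those of Chga, Chgb and Sst, and in 6.52% of 27025 promoters of the same length. In Chga it began 44 bases before the start, in Chgb 72 and in Sst 48. The full palindrome TGACGTCA was present in Chgb and Sst and in 1.60% of all promoters. TATAA on either strand was found in Pyy, Gip, Gcg and Sct, 27 bases before the start in Pyy, and in 23.5% of all promoters. GATAA was found in Gip, Cck and Nts and in 23.0% of all promoters. The match to TGACGT did not separate the members by ratio, since Chga and Sst lay at opposite ends of the range described next. A match is a description of the letters and not evidence that a factor was bound.

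The values are the deposited normalised read counts, from which whole reads were recovered. The libraries held 1058196 reads (dKO-labelled) and 775827 reads (control). A fold is the quotient of the reads in the libraries, corrected for the quotient of their size factors (1.11), and the range beside it is a 95% exact interval that covers counting error only. A gene was called measured at a mean of at least 20 normalised counts, which 6001 symbols reached. By this filter 7 of the 10 members were measured, and Cck, Gcg and Tph1 were not. Ring1 had 10 reads in the dKO-labelled library and 10 in the control, and Rnf2 had 82 and 59 (1.25-fold, 0.886 to 1.78), so neither targeted gene was lower beyond counting error (the log2 ratio of Rnf2 was 0.31, and -0.19 relative to the median gene). Counts over whole transcripts do not show a deleted exon, and the library is named by its label throughout. All 9 absorptive enterocyte markers in the table had reads in each library. Xist had 1 read in the dKO-labelled library and 80 in the control, whereas Ddx3y had 131 and 0, so genotype and sex cannot be told apart.

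Of the measured members, Chga, Chgb and Sct had the higher normalised count in the dKO-labelled library, and Pyy, Sst, Gip and Nts the lower one. Chga (NM_007693), the granin used most widely as an enteroendocrine marker, had a normalised count of 874 in the dKO-labelled library and 417 in the control (920 and 395 reads), 2.10-fold higher (1.86 to 2.37). Chgb (NM_007694), its close partner in the granule, had 1133 and 626 (1192 and 593 reads), 1.81-fold higher (1.64 to 2.00). In neither granin did the counting interval reach 1. Chga made up 43.6% of the reads of the pair in the dKO-labelled library (41.4 to 45.7) and 40.0% in the control (36.9 to 43.1). These intervals overlap, which does not show that the granins moved alike.

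Peptide YY, a satiety peptide of the distal gut, was the lowest of the measured members. Pyy (NM_145435) had a normalised count of 21.8 in the dKO-labelled library and 63.2 in the control (22 and 59 reads), 2.98-fold lower (1.80 to 5.10). Somatostatin, the peptide with which D cells restrain other endocrine cells, lay beside it. Sst (NM_009215) had 25.6 and 66.4 (26 and 62 reads), 2.65-fold lower (1.65 to 4.36). Both rest on few reads, and their intervals overlap widely.

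The incretin gene Gip (NM_008119), whose product raises insulin release after a meal, had a normalised count of 235 in the dKO-labelled library and 409 in the control (246 and 387 reads), 1.75-fold lower (1.48 to 2.06). Neurotensin, a peptide that slows motility and promotes fat uptake, differed little: Nts (NM_024435) had 190 and 214 (199 and 202 reads), a fold of 0.888 (0.726 to 1.09) whose interval includes 1. Secretin, which drives pancreatic bicarbonate release, was marginally higher: Sct (NM_011328) had 371 and 316 (390 and 299 reads), 1.18-fold (1.01 to 1.37). The sign for Sct depended on the scaling and was negative in 4 of 5 scalings, as given below.

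**Figure D1:**
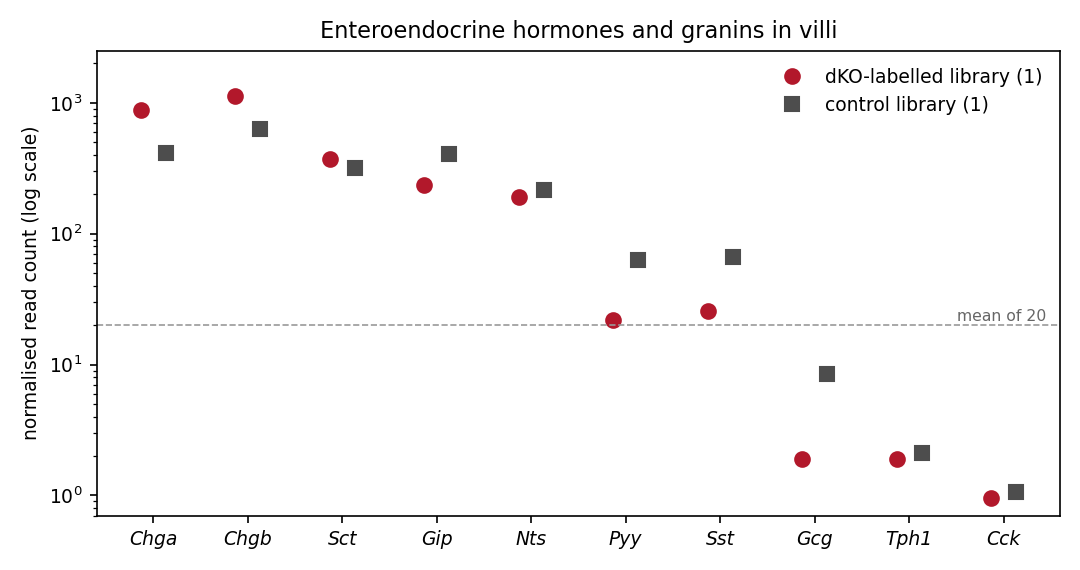
Normalised read counts of the 10 members (log axis), with the dKO-labelled library as circles and the control library as squares, 1 library each, and the filter at a mean of 20 as a dashed line. Chga and Chgb are higher in the dKO-labelled library (874 and 1133 against 417 and 626), Pyy, Sst and Gip are lower, and Gcg, Tph1 and Cck lie below the filter; a value near 1 stands for 0 reads.

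The remaining 3 members were hardly detected. Gcg (NM_008100), the proglucagon gene that encodes GLP-1 and GLP-2 in the gut, had 1 read in the dKO-labelled library and 7 in the control, a fold of 0.129 whose interval ran from 0.00286 to 1.00. Tph1 (NM_001276372) had 1 read in each library. Cck (NM_001284508), the cholecystokinin gene of I cells, had 0 reads in each, and a limit of 3 reads allows up to 2.84 CPM in the dKO-labelled library and 3.87 CPM in the control. The rows of Cck and Tph1 stand for 1 of 2 and 1 of 3 curated RefSeq transcripts of these genes, and other transcripts were not analysed here. Reads of the gene that do not belong to the listed transcript may therefore be missing, and the low counts do not show that the genes were silent. Pyy and Sct likewise have a single row for 2 and 3 curated transcripts, and Gcg has 1 curated transcript.

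Set against the other genes, the hormones lay low and the granins a little above the middle. Of the 7 measured members 1 passed 2-fold upwards (Chga) and 2 downwards (Pyy and Sst), while the shares over all measured genes were 26.2% for the higher and 4.18% for the lower direction. The median log2 ratio was -0.17 over the measured members and 0.51 over all measured genes. Of the measured genes 1.72% had a log2 ratio below that of Pyy (-1.49), 2.17% below that of Sst (-1.34) and 5.98% below that of Gip (-0.80). The corresponding shares were 18.4% for Nts, 35.3% for Sct, 67.4% for Chgb and 76.3% for Chga. With 7 genes, a count of 2 is a description and no sign that the family stands apart.

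**Figure D2:**
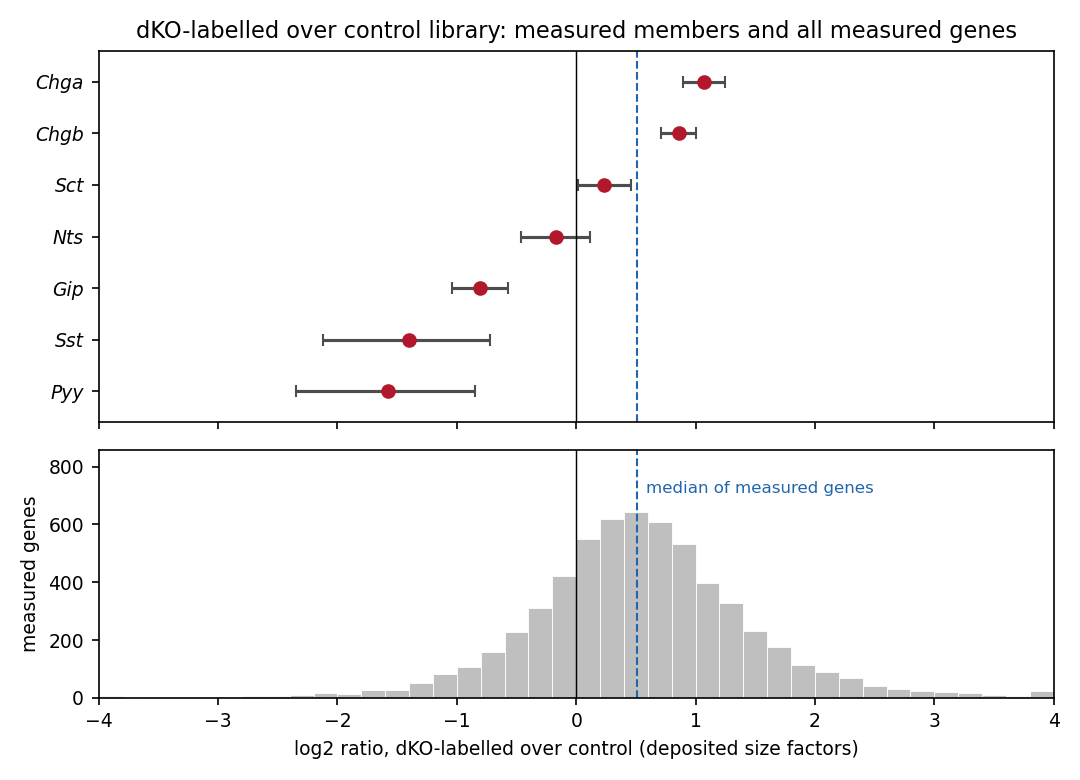
Top, log2 ratio of the dKO-labelled over the control library for the 7 measured members with 95% counting intervals (bars); bottom, the distribution of log2 ratios over 6001 measured genes, with ratios beyond 4 in the end bins, and their median as a dashed line. The granins lie to the right of the median of 0.51, and Sct, Nts, Gip, Sst and Pyy to its left.

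Because the median gene was itself higher, the sign of Sct and the 2-fold calls of Chga and Gip depended on the scaling. Relative to the median gene, 0 members passed 2-fold upwards and 3 downwards (Pyy, Sst and Gip), beside 11.8% and 10.4% of all measured genes. Pyy stayed between -2.11 and -1.49 on the log2 scale over 5 scalings, Sst between -1.96 and -1.34 and Gip between -1.44 and -0.80. Chga stayed positive, between 0.43 and 1.07, as did Chgb, between 0.22 and 0.86, but Chga was 2-fold higher with the deposited size factors alone. Nts was negative throughout, between -0.81 and -0.17, whereas Sct ranged from -0.41 to 0.23. In the authors' deposited table the unadjusted DESeq p-value was 0.297 for Pyy, 0.345 for Sst, 0.415 for Chga, 0.511 for Chgb and 0.542 for Gip.

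The make-up of the enteroendocrine reads, which needs no scaling between libraries, was richer in granins in the dKO-labelled library. The 10 members together had 2997 reads there and 2005 in the control, or 2832 and 2584 CPM, reads scaled to a common library size. Chga and Chgb supplied 70.5% of these reads in the dKO-labelled library (68.8 to 72.1) and 49.3% in the control (47.1 to 51.5). The granins stood at 1996 and 1273 CPM, and the 7 peptide hormones at 835 and 1310 CPM. There were 2.39 granin reads for each hormone read in the dKO-labelled library and 0.972 in the control, a ratio of ratios of 2.46 (2.18 to 2.77). More reads of the shared granule proteins thus stood beside fewer reads of the hormones. In bulk villi, fewer cells of a subtype and less RNA per cell cannot be told apart.

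**Figure D3:**
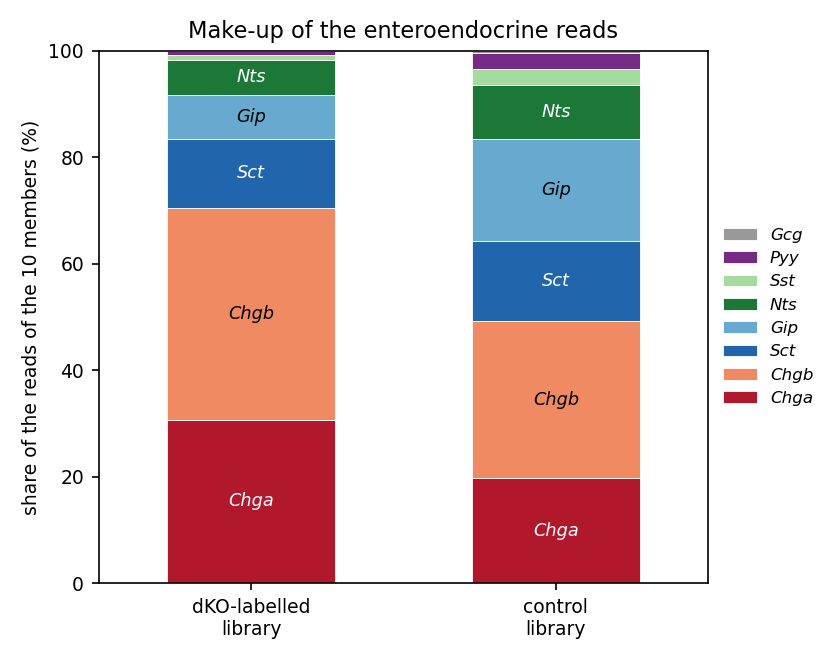
Share of the summed reads of the 10 members taken by each gene, in percent, for the dKO-labelled library (2997 reads) and the control library (2005 reads), 1 library each. Chga and Chgb fill 70.5% of the dKO-labelled bar and 49.3% of the control bar, and the segments of Gip, Pyy and Sst are narrower in the dKO-labelled library; Tph1 and Cck are too small to draw.

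Within the hormones, Sct held the leading share in the dKO-labelled library and Gip in the control. In level, Sct stood at 369 CPM in the dKO-labelled library and 385 in the control, and Gip at 232 and 499. The larger share of Sct was therefore not a higher CPM of Sct. Sct made up 44.1% of the reads of the 7 peptide hormones in the dKO-labelled library (40.8 to 47.5) and 29.4% in the control (26.6 to 32.3). Gip made up 27.8% (24.9 to 30.9) and 38.1% (35.1 to 41.2). Nts held 22.5% (19.8 to 25.4) and 19.9% (17.5 to 22.5), a pair of intervals that overlap. The minor hormones shrank in share: Pyy had 2.49% (1.57 to 3.74) and 5.81% (4.45 to 7.43), and Sst 2.94% (1.93 to 4.28) and 6.10% (4.71 to 7.76).

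Members were also compared pair by pair within each library. All 21 pairs of measured members were computed, and the counting interval of the ratio of ratios excluded 1 in 17 of them. Pairs of other genes were not computed, and the 21 pairs reuse the same genes. The count is therefore a description and does not set the members apart. The widest gap was between Chga and Pyy, with 41.8 Chga reads per Pyy read in the dKO-labelled library and 6.69 in the control, a ratio of ratios of 6.24 (3.70 to 10.8). Gip against Sct gave 0.631 and 1.29 reads, a ratio of ratios of 0.488 (0.389 to 0.611). The 4 pairs whose interval included 1 were Chga with Chgb (1.16, 0.991 to 1.36), Pyy with Sst (0.890, 0.429 to 1.83), Pyy with Gip (0.587, 0.334 to 1.00) and Sst with Gip (0.660, 0.389 to 1.09). An interval that includes 1 does not show that a pair moved alike, since Pyy and Sst rest on few reads. Nts against Sct gave a ratio of ratios of 0.755 (0.585 to 0.974).

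Levels can be ranked between genes per transcript length, as RPKM. In the dKO-labelled library Sct was at 727 (657 to 803), Chga at 462 (432 to 493), Chgb at 411 (388 to 435), Gip at 357 (313 to 404), Nts at 151 (130 to 173), Pyy at 37.5 (23.5 to 56.7) and Sst at 34.1 (22.3 to 49.9). In the control Gip was at 765 (691 to 845), Sct at 760 (676 to 851), Chgb at 279 (257 to 302), Chga at 270 (244 to 298), Nts at 209 (181 to 239), Pyy at 137 (104 to 177) and Sst at 111 (85.0 to 142). Gip and Sct were level in the control, as were the granins, and Pyy and Sst could not be ordered in either library. In the dKO-labelled library Gip stood below Sct and Chga, while its interval overlapped that of Chgb. The granins have the longest transcripts of the measured members (1883 and 2740 bases) and the hormones the shorter ones (507 to 1248 bases). Over the measured genes the median log2 ratio was 0.72 for transcripts under 1000 bases and 0.56 from 1500 to 3000 bases. The part of transcript length in the members' ratios was not tested.

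Hormones of the proximal and of the distal gut were both lower as sums. Gip, Cck and Sct together had 636 reads in the dKO-labelled library and 686 in the control (fold 0.836, 0.749 to 0.932). Pyy, Gcg and Nts had 222 and 268 (0.747, 0.622 to 0.895), and the intervals of the trios overlap. With the deposited size factors the proximal sum was lower through Gip, since Sct was not, but Sct was negative in 4 of 5 scalings. In the distal sum Nts differed less than Pyy. Markers of the distal small intestine and colon differed at the same time: all 5 measured genes passed 2-fold upwards, beside 26.2% of all measured genes, and 3 did so relative to the median gene, beside 11.8%. The list had 1560 reads in the dKO-labelled library and 362 in the control, and 1109 and 362 without Hoxb13. Fabp6 had the most reads of the list (524 and 188). The largest ratios were those of Hoxb13 (451 and 0 reads) and Cubn (49 and 3). Slc10a2, also of the list, had 3 reads in each library and was not measured. Of 5 measured proximal markers, 1 was higher and 1 lower, beside 26.2% and 4.18% of all measured genes. They were Slc40a1, 2.97-fold higher, and Cybrd1, 2.25-fold lower. Their part in the hormone differences was not tested.

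Several genes of the secretory granule were higher, as the granins were. Of 7 measured genes of vesicle proteins and other granins, 4 passed 2-fold upwards and 0 downwards, beside 26.2% and 4.18% of all measured genes, with a median log2 ratio of 1.24. Relative to the median gene 3 were higher, beside 11.8%. Ptprn, a membrane protein of dense-core granules, had 40 reads in the dKO-labelled library and 9 in the control (4.01-fold, 1.91 to 9.39). Syp, a membrane protein of small vesicles, had 38 and 10 (3.43-fold, 1.67 to 7.71), and Resp18, another granule protein, 37 and 13 (2.57-fold, 1.33 to 5.26). Rab3d, a GTPase of secretory vesicles that other secretory cells share, had 178 and 51 (3.15-fold, 2.29 to 4.38). The other granins were low in reads and did not follow Chga: Scg2 had 10 and 19 reads and Vgf 11 and 11. These last genes were singled out after their values were seen.

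Of 7 measured genes of prohormone processing, 1 passed 2-fold upwards and 1 downwards, beside 26.2% and 4.18% of all measured genes, with a median log2 ratio of 0.74. Scg5, the chaperone of the convertase PC2, had 34 reads in the dKO-labelled library and 10 in the control (3.06-fold, 1.48 to 6.95). Pcsk1, the convertase that cleaves proglucagon to GLP-1, had 58 and 29 (1.80-fold, 1.14 to 2.92), and the amidating enzyme Pam 77 and 40 (1.74-fold, 1.17 to 2.61). Cpe, the carboxypeptidase that trims the cleaved peptides, went the other way with 112 and 214 reads (2.12-fold lower, 1.68 to 2.69). Once the median of the measured genes was set to 0, none was higher and 1 (Cpe) lower, beside 11.8% and 10.4% of all measured genes.

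Transcription factors of the lineage gave no called difference. Of 5 measured, 0 passed 2-fold in either direction, beside 26.2% higher and 4.18% lower among all measured genes. Their median log2 ratio was 0.35. With 5 genes, a count of 0 is a description. Neurod1, which acts below Neurog3 and is needed for the secretin and cholecystokinin lineages, had 24 reads in the dKO-labelled library and 26 in the control (0.832, 0.457 to 1.51). Foxa1 had 35 and 21 (1.50-fold, 0.851 to 2.72) and Gata4 188 and 132 (1.28-fold, 1.02 to 1.62). The glucose-responsive factor Mlxipl had 208 and 128 (1.46-fold, 1.17 to 1.84). The last 3 are also expressed in enterocytes or other epithelial cells. Neurog3, the factor of the crypt progenitor, had 0 reads in each library.

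Most measured genes of the serotonin and amine list were higher, while Tph1 itself was too low to compare. Of 10 measured genes 7 passed 2-fold upwards and 0 downwards, beside 26.2% and 4.18% of all measured genes, with a median log2 ratio of 1.83. Relative to the median gene 6 were higher and 1 lower, beside 11.8% and 10.4%. Slc6a4, the transporter that takes up serotonin and that enterocytes express, had 39 reads in the dKO-labelled library and 6 in the control (5.86-fold, 2.46 to 16.9). Maoa, an amine oxidase that inactivates serotonin, had 532 and 44 (10.9-fold, 8.01 to 15.2), Maob, its paralog, 224 and 1, and Spr, an enzyme that makes the cofactor of tryptophan hydroxylase, 252 and 47 (4.83-fold, 3.53 to 6.75). Gch1, the first enzyme of the same cofactor pathway, was the gene lower relative to the median, with 217 and 348 reads (1.78-fold lower, 1.50 to 2.12). Aldh2, an aldehyde dehydrogenase that acts after the amine oxidases, had 219 and 133 (1.48-fold, 1.19 to 1.86), and the vesicle carrier Slc18a2 4 and 2. Slc18a1, the transporter that loads amines into the granules of enterochromaffin cells, had 39 and 14 reads (2.51-fold, 1.33 to 5.01). Gch1, Aldh2, Slc18a2 and Slc18a1 were picked after their values were seen. Maoa, Maob, Spr and Slc6a4 are not particular to enteroendocrine cells.

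Among other gut peptides, 1 of 4 measured was at least 2-fold higher and 0 lower, a share close to the 26.2% of all measured genes that were higher. That gene was Guca2a, the guanylin gene, with 364 reads in the dKO-labelled library and 119 in the control (2.76-fold, 2.24 to 3.42), whereas its relative Guca2b had 509 and 387 (1.19-fold, 1.04 to 1.36). Tac1, the substance P precursor of enterochromaffin cells, had 19 reads in each library, and Adm 25 and 29. Relative to the median gene, 0 of the 4 were called.

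Genes that sense nutrients included a further lower one. Ffar3, the short-chain fatty acid receptor of enteroendocrine cells, had 18 reads in the dKO-labelled library and 73 in the control, 4.50-fold lower (2.66 to 8.01). The absorptive transporters Slc5a1 and Slc15a1, which also serve glucose and peptide sensing, had 1024 and 794 reads (1.16-fold) and 380 and 424 (1.24-fold lower). Ffar3 was the 1 gene of 3 measured that was called, beside 4.18% of all measured genes lower. The channel genes Trpm4 and Trpm2 had 131 and 67 reads (1.76-fold, 1.30 to 2.40) and 34 and 26. None of 23 receptors for the members' hormones reached the filter: their reads summed to 52 in the dKO-labelled library and 28 in the control, and those with most reads were Npy1r (18 and 12) and Gcgr (12 and 0).

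**Figure D4:**
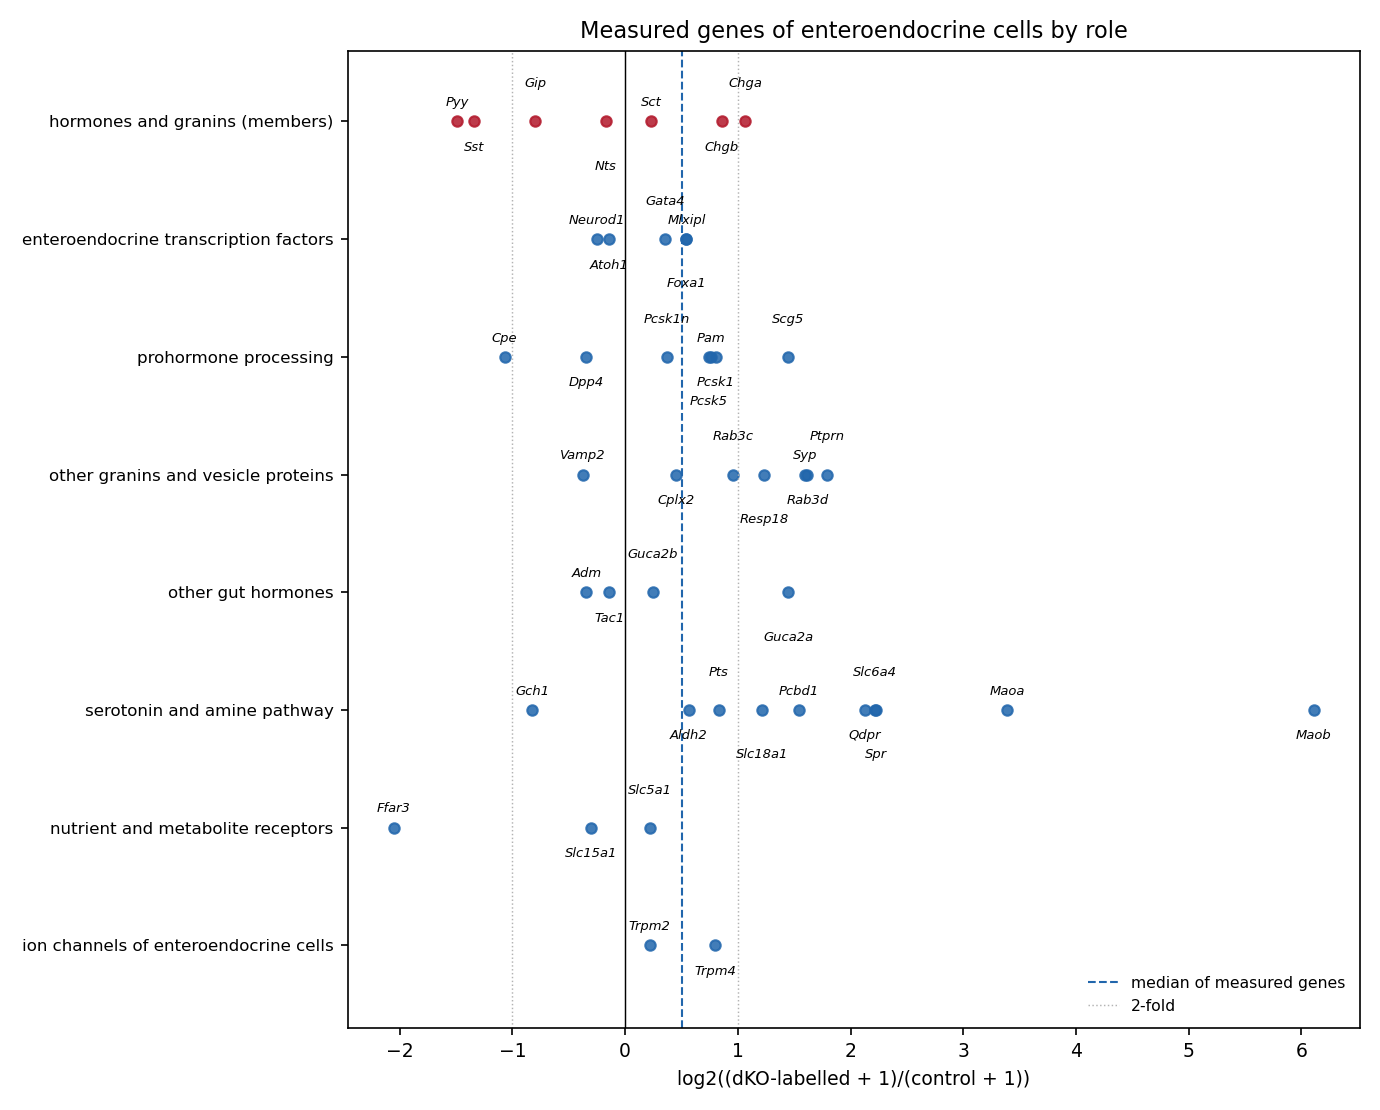
Log2 ratio of the dKO-labelled over the control library, with 1 added to each normalised count, for the measured members and the measured genes of 7 enteroendocrine lists; each point is a gene, the dashed line the median of measured genes (0.51) and the dotted lines 2-fold. Vesicle and serotonin pathway genes lie mostly to the right, and Pyy, Sst, Cpe and Ffar3 lie beyond 2-fold on the left.

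Markers of other cells differed between the libraries as well, and several sums rested on 1 gene. The reads below are not corrected for library size, whereas each fold is, and the median measured gene had a log2 ratio of 0.51. Absorptive enterocytes, the main cells of the villus, had 12134 reads in the dKO-labelled library and 14196 in the control over 9 markers. This sum had a fold of 0.770 (0.752 to 0.789). Without Apob (2133 and 6742) the other enterocyte markers had 10001 and 7454 (1.21-fold, 1.17 to 1.25). Fibroblast markers had 186 and 22 reads over 5 genes (7.62-fold, 4.89 to 12.5), with Dcn at 0 in each. Smooth muscle markers had 188 and 41 over 6 genes (4.13-fold, 2.94 to 5.95). Endothelial markers had 39 and 53 reads (fold 0.663, 0.427 to 1.02), but 34 and 5 without Tie1 (5 and 48). Immune markers had 162 and 84 reads (1.74-fold, 1.33 to 2.29), most of them from Gzma (94 and 64), with Ptprc at 0 in each. Enteric neurons and glia, which can express Sst, Nts and granins, had 31 and 43 reads over their markers, and 14 and 10 without Ret (17 and 33). The folds were 0.650 (0.396 to 1.06) and, without Ret, 1.26 (0.521 to 3.18). Pancreatic islet markers, relevant because islets express Sst, Gcg, Pyy and Chga, had 4 and 9 reads over 3 genes, nearly all from Iapp (3 and 9), with Ppy at 0 in each. Crypt and cycling-cell markers had 83 and 22 reads over 5 genes (3.40-fold, 2.10 to 5.72). Among the other epithelial lineages, goblet markers had 3314 and 4552 reads (fold 0.656, 0.627 to 0.686). This sum was lower mainly through Muc2 (671 and 1155) and Fcgbp (1031 and 1872). Tff3 (582 and 535, fold 0.981) and Zg16 (957 and 961, fold 0.898) differed less. Spdef went the other way, with 73 and 28 reads (2.35-fold, 1.50 to 3.77), and Clca1 had 0 and 1. Paneth markers had 3046 and 1693 (1.62-fold, 1.53 to 1.72). Tuft markers had 163 and 312 reads (fold 0.471, 0.387 to 0.571). Without Trpm5 (33 and 189) they had 130 and 123, a fold of 0.953 (0.739 to 1.23) whose interval includes 1. The 8 enteroendocrine markers in the table had 2246 and 1071 reads (1.89-fold, 1.76 to 2.03), nearly all from Chga and Chgb. The other 6 had 134 and 83 (1.46-fold, 1.10 to 1.94), with Pcsk1 (58 and 29) and Scg5 (34 and 10) higher. Neurod1 had 24 and 26 reads, Scgn 8 and 12, Insm1 10 and 6, and Neurog3 0 in each. The part of these cells in the hormone and granin values was not tested.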

How the data were processed

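Villus RNA of 1 library per genotype was analysed from a single table of 22040 RefSeq transcripts. TopHat, DESeq and build mm9 are named in the submitters' processing notes, without versions (counter, strand setting and duplicate treatment: not given in the sources used here). Per the file headers the signal columns are base means, that is normalised read counts. All rows (100%) held whole multiples of the column's smallest value, 0.949 (dKO-labelled) and 1.05 (control), to within 0.001 of a step, and none was 0. This was taken to mean that 1 read had been added to each count before normalisation, an inference from the values, and reads were recovered as steps minus 1. The deposited fold (ratio), log2 and p-value columns are the authors' own comparison, and the p-values are unadjusted.

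For each of 20722 symbols the row with the highest mean was kept. The main measure was log2((dKO + 1)/(control + 1)), called by size at 2-fold for a mean of at least 20. Intervals are 95% Clopper-Pearson, exact Poisson for RPKM and exact conditional for ratios of ratios. PCR reads are not independent molecules, so intervals cover counting error only. Of the identifiers, 98.5% matched RefSeq of GRCm38.p6, used for names, promoters and numbers of transcripts. Transcript lengths came from GENCODE M21. Named genes were all members, the targeted genes and, from each list, up to 4 measured genes with the largest absolute log2 ratio, or the 2 with most reads. Any gene outside that rule was named after its values were seen. The members and lists were chosen with earlier results of these data known. As alternatives, the libraries were scaled by totals, upper quartile or TMM (edgeR 4.0.16, R 4.3.3), and the median set to 0, a pseudocount of 5, other filters, thinning, summed rows and removal of the added read were tried. Python 3.11.15 was used for the rest (matplotlib 3.10.9, scipy 1.17.1, numpy 2.4.6 and pandas 2.3.3), and its functions were first tested on simulated data.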

Additional observations from a re-analysis of the deposited data

How the results depend on the processing

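No paired analysis was possible because there are no replicates, and for the same reason no library could be left out. Members at least 2-fold higher numbered 1 (Chga), and 0 under total counts, upper quartile, TMM, the centred median, thinning and the rule of a counting interval beyond 2-fold, whereas the binomial test called 2. Members at least 2-fold lower numbered 2, but 0 at a minimum mean of 100, where Pyy and Sst were not measured, and 0 by the interval rule. The median log2 ratio of measured members was -0.17. It was -0.47 under total counts, -0.81 under upper quartile, -0.69 under TMM, -0.68 with a centred median, -0.49 after thinning and 0.23 at a minimum mean of 100, where 5 members remained. Without Chgb, the member with most reads, the granin share was 51.0% in the dKO-labelled library and 28.0% in the control. Over all measured genes the median was 0.51, and total counts, upper quartile and TMM shift all ratios by -0.30, -0.64 and -0.53. The measured genes gave 1574 higher and 251 lower. This pair became 972 and 436 under total counts, 528 and 818 under upper quartile, 657 and 665 under TMM, 711 and 626 for the centred median and 842 and 396 for thinned reads. Unfiltered it was 3704 and 892, for a minimum mean of 100 it was 358 and 104, and by the interval rule 627 and 104. The binomial test, exact on the reads, adjusted by Benjamini-Hochberg and chosen after seeing the data, gave 2972 and 690, and it compares the libraries and not the conditions. The other settings kept these counts within 1.5 times. Cck, Gcg and Tph1 had 0 to 7 reads a library and were not measured, so no call was made for them. Gcg (1 and 7 reads) had a negative log2 ratio in each of 5 scalings, between -2.21 and -1.70. The counting interval of its fold reached 1.00 with the deposited size factors. The part of depth and of the single listed transcript in these low counts was not tested.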
